A study of Mus musculus with 12 samples.

Results

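Single S-shaped bodies were compared with collecting duct on 6 of the 12 arrays of a study of nephron formation in the mouse. The 3 single S-shaped body arrays (replicates 3, 4 and 5) each carry RNA amplified from 1 structure, and the 3 collecting duct arrays (replicates 1, 2 and 3) each carry RNA from 1 unpooled collecting duct sample. The arrays were chosen by their titles and by the stated pool size, and the probe sets compared were all those of the array other than the 66 controls. The other arrays of the study hold renal vesicles and S-shaped bodies, 3 arrays each, from pools of 20 structures. Both groups compared came from wild-type Swiss Webster embryos at E14.5, Theiler stage 22, of unknown sex. Structures were microdissected by their shape, RNA was taken with TRIzol, and cRNA was made in 2 rounds of T7 amplification and hybridized to Affymetrix MG_U74Av2 arrays. By the labels each sample is a biological replicate, but whether the embryos were separate is not said; the p-values therefore cover the spread among these arrays and nothing wider.

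The S-shaped body is the stage of the nephron at which the epithelium bends and becomes patterned along its length. Its lower limb holds the precursors of podocytes and of the glomerular capsule, endothelial cells enter the cleft next to it, and its upper limb gives rise to tubule and joins the collecting duct. The collecting duct has another origin, the branching ureteric bud, and is a simple epithelium with tight junctions and keratins from early on. The comparison therefore sets a nephron precursor beside the epithelium it connects to.

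The deposited signal of the single S-shaped body arrays was low. Their mean intensity was 21.4, 48.9 and 70.6 in replicates 3, 4 and 5, against 273 to 363 on the collecting duct arrays. Between 48.3% and 54.4% of probe sets were above background in single S-shaped bodies and between 54.9% and 57.9% in collecting duct. After normalization the single S-shaped body arrays correlated with each other at r = 0.912 to 0.939 across probe sets, and the collecting duct arrays at 0.974 to 0.978. The ratio of the 3′ to the 5′ beta-actin control, which rises as RNA is shortened, was 85.7 ± 8.64 in single S-shaped bodies and 51.2 ± 33.4 in collecting duct (SD, n = 3 each). Its ranges overlapped (75.8 to 91.4 and 27.7 to 89.4), and its part in the results was not tested.

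Of 6750 genes tested, 1091 were higher in single S-shaped bodies (16.2%) and 1277 were lower (18.9%), by limma with Benjamini-Hochberg adjustment. The median log2 change over all genes tested was -0.08. The 3 values of a group lay wholly above or below those of the other in 3330 genes (49.3%). Levels are given on a log2 scale, as log2 of the normalized intensity plus a pseudocount, where 2.85 is the floor that stands for no signal. Where a gene was not above background on any array of the dimmer group, the difference is given as a lower bound: the bright group's mean is set against the lowest signal that counts as above background on each dim array, or the gene's own level where that is higher. This was so in collecting duct for 288 of the higher genes and in single S-shaped bodies for 287 of the lower genes.

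The genes with the largest difference separated the groups without overlap, which their choice required. Cxcl12, a chemokine made by mesenchymal cells and podocyte precursors, was 11.38, 11.12 and 11.59 on the log2 scale in single S-shaped bodies and at the floor of 2.85 on every collecting duct array, which makes it at least 101-fold higher (limma adjusted p = 5.18e-07). Foxc2, one of the forkhead factors that podocyte precursors make, was 11.14, 10.77 and 10.47 against 2.93, 3.57 and 2.85, at least 68.2-fold higher (limma adjusted p = 1.59e-06). The intermediate filament gene Krt19, typical of simple epithelia, was at the floor on the 3 single S-shaped body arrays and 11.51, 11.16 and 11.27 in collecting duct, at least 77.1-fold lower (limma adjusted p = 5.18e-07). Among the genes with the largest increase, the beta-globin gene Hbb-b2 read 11.05, 11.21 and 11.99 against 2.85, 2.85 and 3.27, at least 105-fold (limma adjusted p = 1.22e-06). Gimap4, a small GTPase known from lymphocytes, was at least 69.8-fold higher (limma adjusted p = 1.44e-06). Enpep, the membrane peptidase aminopeptidase A, was at least 83.1-fold higher (limma adjusted p = 1.94e-06), and Fabp4, a fatty acid binding protein found in fat and capillary endothelium, at least 70.2-fold (limma adjusted p = 1.22e-06). The genes with the largest decrease were led, after Krt19, by Foxa1, a forkhead factor of endoderm and ureteric epithelium, which was 2.85, 3.03 and 4.13 in single S-shaped bodies and 10.91, 10.78 and 10.77 in collecting duct. That is a difference of at least 54.7-fold (limma adjusted p = 3.34e-06). Plet1, a surface protein of placental and other epithelia, was at least 49.0-fold lower and the membrane serine protease Tmprss2 at least 33.7-fold lower (limma adjusted p = 1.44e-06 and 2.89e-06). Oit1 was at least 20.8-fold lower (limma adjusted p = 3.34e-06).

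**Figure D1:**
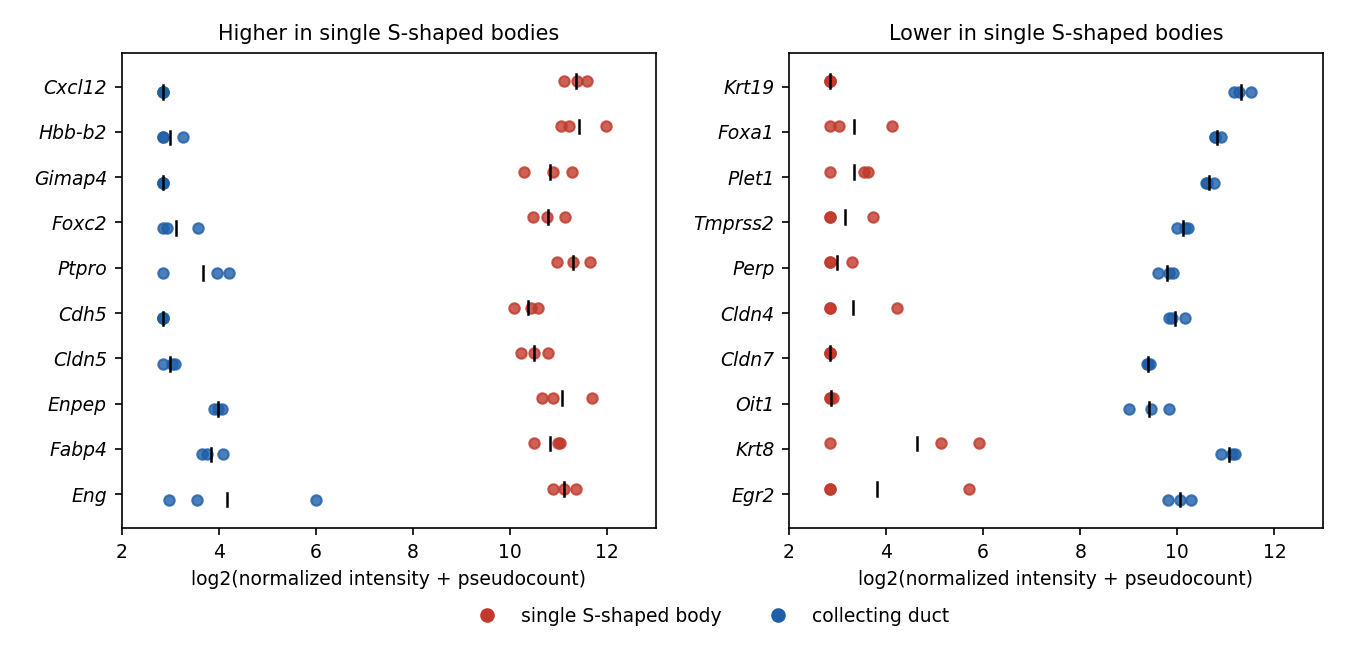
Level of the 10 genes with the largest increase (left) and the largest decrease (right) in single S-shaped bodies, as log2(normalized intensity + pseudocount) on the x axis. Each point is 1 array, 3 per group, and black ticks are group means. The points of the groups do not overlap for any of these genes, which the rule for choosing them required; Eng in collecting duct (2.98 to 6.02) and Krt8 and Egr2 in single S-shaped bodies spread the most.

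Podocyte precursor genes were higher in single S-shaped bodies almost throughout. Of 22 genes listed, 15 were on the array and 12 were tested; 11 were higher and 1 was lower, with a median log2 change of 3.37 against -0.08 over all genes. Ptpro, a receptor phosphatase of podocyte foot processes, was 11.30, 10.98 and 11.65 in single S-shaped bodies and 4.22, 2.85 and 3.97 in collecting duct, at least 97.5-fold higher (limma adjusted p = 4.2e-06). Tcf21, a basic helix-loop-helix factor of podocytes and stroma, was 9.56, 9.62 and 9.90 against 2.85, 2.91 and 5.03, a log2 change of 6.10 ± 0.55 (SE, limma adjusted p = 0.000119). Wt1, the zinc finger factor that the series text names for the early nephron, was 8.96, 8.50 and 8.41 against 4.71, 4.93 and 4.69, a log2 change of 3.85 ± 0.26 (SE, limma adjusted p = 2.57e-05). In each of these genes the lowest single S-shaped body array lay above the highest collecting duct array. Also called higher were Synpo, Nes, Cdkn1c, Vegfa, Actn4 and Dag1, with log2 changes from 1.09 for the dystroglycan gene Dag1 to 3.59 for the actin-binding protein gene Synpo. Foxc1, the relative of Foxc2, was at least 2.41-fold higher (limma adjusted p = 0.00485). Cdkn1c, the cyclin-dependent kinase inhibitor p57, which podocyte precursors switch on as they leave the cell cycle, was 13.01 ± 0.26 against 9.68 ± 0.19 (SD, n = 3 each). Cd2ap, an adaptor of the slit diaphragm that many epithelia also make, was the member called lower, at 7.40 ± 0.19 against 8.11 ± 0.15 (log2 change -0.71 ± 0.20, SE, limma adjusted p = 0.0255). Its call was lost without any 1 of the collecting duct arrays or without single S-shaped body replicate 5. That of Vegfa was lost without any 1 of the collecting duct arrays. Podxl, the podocyte sialomucin podocalyxin, was at or near the floor on the 6 arrays (up to 4.75) and was not tested.

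Genes of the nephron progenitors and of the early nephron epithelium were mixed. Over all genes tested, 16.2% were called higher and 18.9% lower. Of 8 progenitor genes tested, 3 were higher and 1 was lower, with a median log2 change of 0.58, or 0.21 with the 5 genes not above background in 1 group set at their bound. Hoxa11, which acts in the mesenchyme around the bud, was 5.86, 6.34 and 6.42 against 3.05, 2.85 and 3.68, at least 2.84-fold higher (limma adjusted p = 0.000606). Ncam1, a cell adhesion molecule of condensing mesenchyme, was 10.16 ± 0.92 against 7.76 ± 0.39 (SD, n = 3 each; limma adjusted p = 0.00308). Six2, which keeps progenitors undifferentiated, was 5.47, 7.13 and 6.37 against 6.01, 5.89 and 5.83 and did not pass (log2 change 0.41 ± 0.42, SE, limma adjusted p = 0.487); the collecting duct values lay inside the single S-shaped body range. The homeobox gene Uncx was called higher (limma adjusted p = 0.0377), but it was not above background on any collecting duct array and its level did not exceed the bound, so no fold is given. It lost the call without any 1 of the collecting duct arrays or without single S-shaped body replicate 3 or replicate 4. Gdnf, the growth factor by which the mesenchyme attracts the ureteric bud, was called lower, by at least 1.16-fold (limma adjusted p = 0.0186). It was not above background on any single S-shaped body array, a second probe set for it went the opposite way, and its call was lost without any 1 of the collecting duct arrays.

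Of 14 early nephron genes tested, 5 were higher and 2 were lower, with a median log2 change of 0.19, or 0.15 with 6 genes at their bound. The shares over all genes tested were 16.2% higher and 18.9% lower. Cdh4, the cadherin that appears as the mesenchyme becomes epithelium, was 9.94, 8.94 and 8.94 in single S-shaped bodies and at the floor in collecting duct, at least 23.7-fold higher (limma adjusted p = 7.86e-06). Hey1, a transcriptional repressor downstream of Notch, was 8.12, 8.90 and 8.11 against 4.09, 3.43 and 4.93, a log2 change of 4.23 ± 0.43 (SE, limma adjusted p = 0.000217). Lhx1, a homeobox gene without which nephrons do not form, was 5.19, 6.01 and 5.0 against the floor, at least 1.62-fold higher (limma adjusted p = 0.00152), and was above background on 1 of the 3 single S-shaped body arrays. Also called higher were Tgfb2 and Sfrp2. Wnt4, the signal that turns mesenchyme into epithelium and another gene that the series text names, was at the floor on the 3 single S-shaped body arrays and 6.18, 5.66 and 6.57 in collecting duct, at least 2.13-fold lower (limma adjusted p = 0.000342). Dkk1, a secreted Wnt inhibitor, was at least 1.15-fold lower (limma adjusted p = 0.00450). Pax8, the last gene that the text names, read 2.85, 5.85 and 4.80 in single S-shaped bodies and 5.22, 5.29 and 5.60 in collecting duct, and did not pass (log2 change -0.87 ± 0.69, SE, limma adjusted p = 0.369). It was above background on 1 of the 3 single S-shaped body arrays. The pooled S-shaped bodies read 2.85 for Wnt4 on their 3 arrays, and 4.95, 5.70 and 6.08 for Pax8.

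Markers of later tubule segments had calls in both directions, where 16.2% of all genes tested were called higher and 18.9% lower. Of 12 proximal tubule genes tested, 1 was higher and 3 were lower, with a median log2 change of -0.36, or -0.15 with 3 genes at their bound; 0 of the 12 were above background on the 3 single S-shaped body arrays. Pdzk1, a scaffold of brush border transporters, was called lower with values of 2.85, 7.67 and 2.85 against 8.34, 8.75 and 8.43. Ass1, of the urea cycle, and Cubn, an endocytic receptor, were also called lower. Mme, the membrane peptidase neprilysin, was the gene called higher. It was not above background on any collecting duct array and its level did not exceed the bound, so no fold is given. The 4 calls of this list were lost without any 1 of the collecting duct arrays, and with no filter the list had 0 higher and 0 lower. Leaving out a single S-shaped body array also ended the call of Pdzk1 (replicate 3 or 5), Mme (4 or 5) and Cubn (4). Of 10 genes of the distal tubule and loop of Henle, Irx3, an Iroquois factor of the middle of the S-shaped body, was higher (7.08, 6.76 and 6.22 against 3.98, 5.14 and 4.97; log2 change 1.99 ± 0.41, SE, limma adjusted p = 0.00632). Wfdc2, a secreted protease inhibitor of many ducts, was 2.85, 3.81 and 2.85 against 7.93, 7.90 and 7.18, at least 6.17-fold lower (limma adjusted p = 0.000113), and Sim1 was at least 1.29-fold lower (limma adjusted p = 0.0152). The call of Sim1 was lost without collecting duct replicate 1. Hnf4a, the nuclear receptor of differentiated proximal tubule, was at or near the floor on the 6 arrays (up to 3.0) and was not tested.

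Endothelial genes were the other large group that was higher in single S-shaped bodies. Of 31 genes listed, 25 were on the array and 23 were tested; 18 were higher and 0 were lower, with a median log2 change of 3.24, or 2.39 with the 15 genes not above background in 1 group set at their bound. The mean level of the tested genes was 7.65, 7.14 and 7.69 on the single S-shaped body arrays. On the collecting duct arrays it was 3.94, 4.0 and 4.08. Of the 23, 16 were not above background on any collecting duct array. Such genes passed the filter on dim probe sets largely through the single S-shaped body arrays, so this separation is partly set by the filter. Cdh5, the cadherin of endothelial junctions, was 10.57, 10.08 and 10.44 against the floor on the 3 collecting duct arrays, at least 50.6-fold higher (limma adjusted p = 1.12e-06). Cldn5, the claudin of endothelial tight junctions, was 10.79, 10.49 and 10.24 against 3.05, 2.85 and 3.10, at least 55.8-fold higher (limma adjusted p = 1.12e-06). Eng, a TGF-beta co-receptor of vessels, was 11.12, 10.89 and 11.36 against 3.55, 6.02 and 2.98 (log2 change 6.94 ± 0.68, SE, limma adjusted p = 0.000183). The highest collecting duct array, replicate 2, still lay far under the lowest single S-shaped body array. Calls also went to Tie1, Emcn, Flt1, Sox17, Kdr, Icam2, Lmo2, Ramp2, Pecam1, Gja4, Cd34, Sox18, Ets1, Flt4 and Tek, all higher. Tie1 was at least 31.6-fold higher and its relative Tek, the angiopoietin receptor, at least 1.72-fold (limma adjusted p = 2.46e-06 and 0.0313). Emcn, Lmo2, Sox18 and Flt4 had log2 changes of 5.70, 4.11, 1.90 and 1.47. They were above background on 1, 2, 3 and 2 of the 3 collecting duct arrays, in that order. The VEGF receptors Kdr and Flt1 were at least 8.99-fold and 15.8-fold higher (limma adjusted p = 0.000530 and 0.000181). Tal1, Gja5, Sox7, Vwf and Fli1 did not pass. In RNA from whole structures, fewer cells of a type and less RNA per cell cannot be told apart. The endothelial and podocyte genes were higher on the same arrays, and the part of cell makeup in either result was not tested.

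Among ligands that act on vessels, 4 of 10 tested were higher and 0 were lower, with a median log2 change of 0.53. Among all genes tested, 16.2% were higher and 18.9% lower. Vegfc was 7.64, 6.15 and 8.20 against the floor, at least 6.17-fold higher (limma adjusted p = 0.000415). Vegfa, which podocyte precursors secrete to draw in capillaries, was 6.69, 6.95 and 8.67 against 5.20, 5.74 and 6.11 (log2 change 1.75 ± 0.52, SE, limma adjusted p = 0.0311). Angpt2, which opposes angiopoietin 1, was at least 1.76-fold higher (limma adjusted p = 0.00694), and Efnb2, a membrane ligand of arterial endothelium, had a log2 change of 0.92. Without collecting duct replicate 1 the ligands had 2 higher and 1 lower. Genes of red blood cells had 4 higher and 1 lower of 10 tested, and 2 and 0 without collecting duct replicate 2 or replicate 3. The alpha-globin gene Hba-a1 was 9.79, 10.03 and 10.62 against 6.34, 6.64 and 6.41 (log2 change 3.68 ± 0.24, SE, limma adjusted p = 2.36e-05). The erythroid anion exchanger Slc4a1, the erythroid factor Klf1 and embryonic Hbb-y were the other genes called higher, and Slc4a1 lost the call without collecting duct replicate 2 or replicate 3. The gene called lower, Epor, was above background on no array of either group. Of the other embryonic globins, Hba-x did not pass (log2 change 0.63, limma adjusted p = 0.446) and Hbb-bh1 was not tested. Hba-a1, Hbb-b2 and the endothelial genes called were higher on the same arrays, and the part of blood in those results was not tested. Of 13 macrophage and leukocyte genes tested, 3 were higher (C1qa, Coro1a and Csf1r) and 0 were lower. The shares over all genes tested were 16.2% and 18.9%. Csf1r had a log2 change of 1.19, and Coro1a was at least 1.02-fold higher. C1qa was not above background on any array of either group, and without single S-shaped body replicate 5 the list had 1 higher and 1 lower. Coro1a and Csf1r lost their calls without any 1 of 5 arrays. Cd68, Ptprc, Aif1, Adgre1, Lyz2, Fcer1g, C1qc, Itgam and Mrc1, among them defining markers of these cells, fell under the filter on dim probe sets.

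Of 30 genes of stroma and interstitium tested, 11 were higher and 1 was lower, with a median log2 change of 0.68, or 0.52 with 13 genes at their bound. The shares over all genes tested were 16.2% higher and 18.9% lower. Besides Cxcl12, Acta2, the smooth muscle actin, was 7.96, 8.38 and 9.09 against the floor, at least 13.7-fold higher (limma adjusted p = 2.04e-05). Foxd1, a forkhead factor of the cortical stroma, was 9.59, 9.30 and 9.14 against 3.78, 3.95 and 4.26, at least 24.9-fold higher (limma adjusted p = 4.2e-06). Higher as well were Col5a2, Col3a1, Meis1, Twist1, Pdgfrb, Meis2, Col1a1 and Fn1, and 18 genes, among them Vim, Postn and Pdgfra, did not pass. Smoc2, a secreted matrix protein, was lower (log2 change -2.90 ± 0.55, SE, limma adjusted p = 0.00417). The mean level of the tested genes was 6.27 to 6.60 in single S-shaped bodies and 4.80 to 4.96 in collecting duct. Of the 30, 16 were not above background on any collecting duct array, and 3 on any single S-shaped body array. Genes above background only in single S-shaped bodies passed the filter on dim probe sets largely through those arrays. The separation of this list is therefore partly set by the filter.

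Basement membrane genes split by chain. Of 19 tested, 9 were higher and 2 were lower, with a median log2 change of 0.90. Among all genes tested, 16.2% were higher and 18.9% lower. Nid2 and Nid1, the nidogens that link laminin to collagen IV, were 10.06 ± 0.17 and 8.43 ± 0.26 in single S-shaped bodies and 3.24 ± 0.35 and 3.25 ± 0.27 in collecting duct (SD, n = 3 each). These differences were at least 41.1-fold and 13.2-fold (limma adjusted p = 1.89e-06 and 1.41e-05). Lama4, the laminin chain of vessel walls, was 7.51, 8.69 and 7.30 against the floor, at least 8.75-fold higher (limma adjusted p = 8.53e-05), but a second probe set for it went the opposite way without being called. The collagen IV chains Col4a1 and Col4a2 were both higher in single S-shaped bodies, with log2 changes of 3.23 and 3.02. Higher as well were Hspg2, Lama2, Lamc1 and Lamb1. The chains called lower were those of a laminin of epithelial anchoring sites: Lamb3 was at the floor against 7.03, 6.54 and 7.12, at least 3.61-fold lower (limma adjusted p = 7.86e-05), and Lama3 was 2.85, 4.73 and 5.63 against 6.92, 6.78 and 7.08 (log2 change -2.52 ± 0.63, SE, limma adjusted p = 0.0156). The call of Lama3 was lost without any 1 of the collecting duct arrays. Leaving out a collecting duct array gave 6 or 7 basement membrane genes higher and 1 lower.

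**Figure D2:**
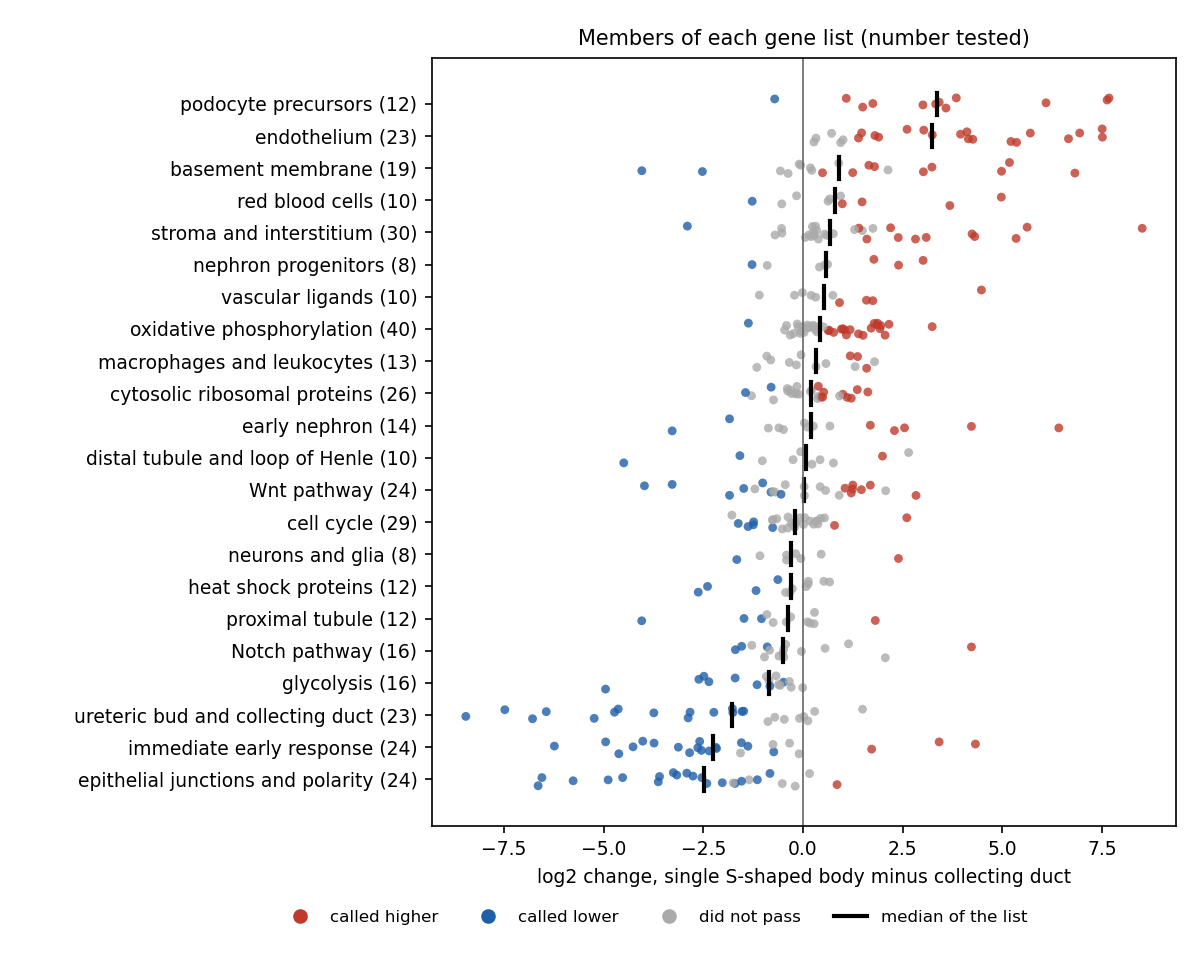
Log2 change of each tested member (points) in single S-shaped bodies minus collecting duct, by gene list, with the number of genes tested in parentheses and the list median as a black bar. Red and blue points were called higher and lower at an adjusted p under 0.05, and grey points did not pass. Podocyte precursors (median 3.37) and endothelium (3.24) lie farthest to the right, and epithelial junctions and polarity (-2.48) farthest to the left. Points of genes not above background in 1 group are fitted changes, not bounds.

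The list of ureteric bud and collecting duct markers was lower in single S-shaped bodies. Of 40 listed, 27 were on the array and 23 were tested. Of these, 15 were lower and 0 were higher, with a median log2 change of -1.77. Of the 23, 11 were not above background on any single S-shaped body array, and 4 on any collecting duct array. Genes above background only in collecting duct passed the filter on dim probe sets largely through those arrays. This separation is therefore partly set by the filter. Krt8 and Krt18, partner keratins of simple epithelia, behaved like Krt19. Krt8 was 2.85, 5.13 and 5.90 in single S-shaped bodies and 11.13, 10.90 and 11.18 in collecting duct (log2 change -6.44 ± 0.66, SE, limma adjusted p = 0.000228). Krt18 was 5.07, 4.76 and 4.08 against 10.26, 9.79 and 9.57, at least 28.5-fold lower (limma adjusted p = 1.48e-05). Perp, a desmosome protein and target of p53 family factors, was 2.85, 3.29 and 2.85 against 9.83, 9.61 and 9.91, at least 26.7-fold lower (limma adjusted p = 1.72e-06). The p53 family factor Trp63 was at least 18.4-fold lower, the raft protein Mal at least 7.59-fold and the epithelial factor Ehf at least 1.25-fold (limma adjusted p = 7.73e-06, 3.56e-05 and 0.00447). Also lower were Tfcp2l1, Elf3, Elf5, Krt7, Gata2 and Hoxb7, with log2 changes between -3.74 for the transcription factor Tfcp2l1 and -1.53 for the homeobox gene Hoxb7. The ligand Wnt7b was called lower with no array of either group above background. The Krt7 signal stayed high in single S-shaped bodies, at 8.87 ± 1.24 against 11.11 ± 0.05 (SD, n = 3 each). Gata3, a zinc finger factor of the ureteric bud, was 7.54, 7.35 and 8.82 against 8.38, 8.57 and 8.88 and did not pass (log2 change -0.71 ± 0.37, SE, limma adjusted p = 0.178). Ret, Calb1 and Wnt11, which are known from the ureteric tips and stalks, were not above background on any of the 6 arrays and were not tested, so those defining markers of the bud were not measurable in collecting duct here.

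Genes of epithelial junctions and polarity were lower as well. Of 24 tested, 18 were lower and 1 was higher, with a median log2 change of -2.48, or -2.2 with 7 genes at their bound. These 7 were above background in collecting duct only and passed the filter on dim probe sets largely through those arrays. The claudins Cldn4 and Cldn7, which form the tight junctions of the collecting duct, were 2.85, 4.23 and 2.85, and at the floor on the 3 arrays, in single S-shaped bodies. In collecting duct Cldn4 was 9.82, 9.89 and 10.16 and Cldn7 was 9.45, 9.39 and 9.37. The differences were at least 30.1-fold and 20.5-fold (limma adjusted p = 1.46e-05 and 1.59e-06). Epcam, an adhesion molecule of simple epithelia, was 4.22 ± 0.72 against 9.99 ± 0.11 (SD, n = 3 each), at least 30.8-fold lower (limma adjusted p = 1.61e-05). Also lower were the claudins Cldn3 and Cldn6, occludin (Ocln), the desmosomal genes Dsc2, Dsg2, Dsp, Pkp2 and Ppl, and Spint1, F11r, Cdh16, Prss8, Crb3, Pard3 and Ctnna1. Cdh1, the cadherin of most epithelia, was 6.14, 6.27 and 6.32 against 6.59, 6.86 and 6.84; these values do not overlap, but the difference did not pass (log2 change -0.52 ± 0.24, SE, limma adjusted p = 0.132). Tjp1, the scaffold ZO-1 that epithelia and endothelia share, was the member called higher, at 10.94, 10.67 and 11.29 against 10.16, 10.07 and 10.12 (log2 change 0.85 ± 0.16, SE, limma adjusted p = 0.00463). The mean level of the list was 5.64, 6.37 and 5.62 in replicates 3, 4 and 5 of single S-shaped bodies, highest in replicate 4, and 8.45 to 8.55 in collecting duct.

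**Figure D3:**
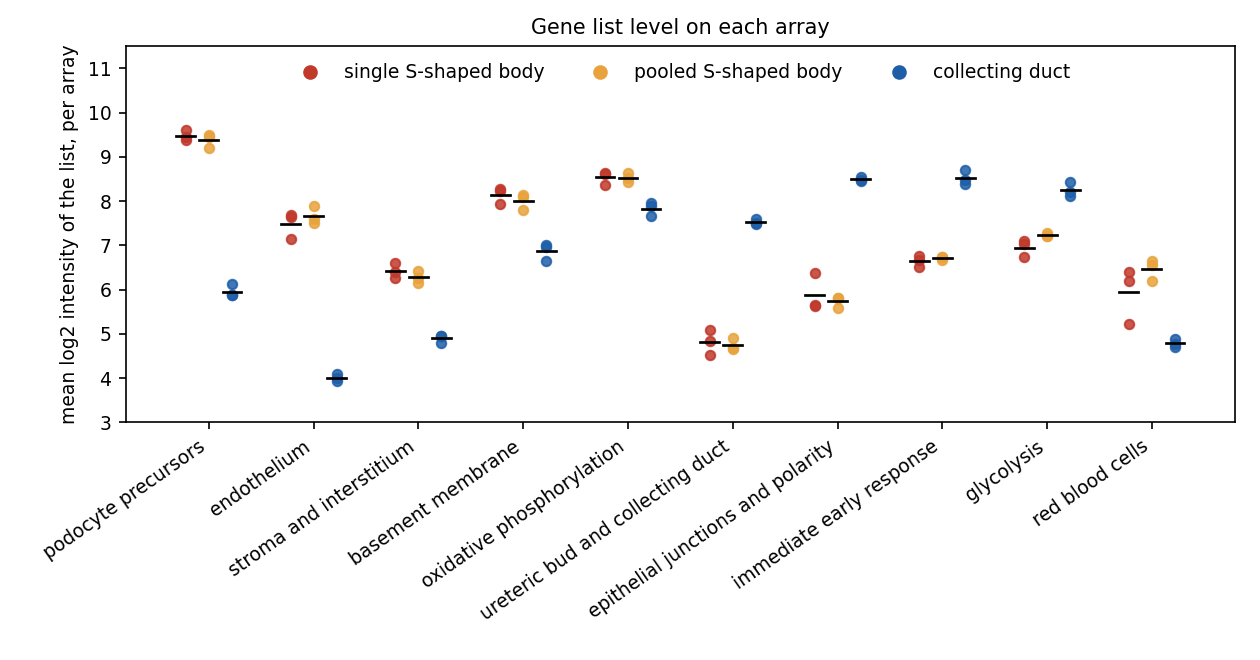
Mean log2 level of the tested members of 10 gene lists on each array: single S-shaped bodies (red), pooled S-shaped bodies (orange) and collecting duct (blue), with 3 points per group and group means as black bars. The ranges of single and pooled S-shaped bodies overlap in each list shown except glycolysis. In each of the 10 lists both lie apart from collecting duct. The single bodies spread most in the red blood cell list, from 5.22 to 6.39.

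Immediate early genes, which cells transcribe within minutes of a stimulus such as growth factor or mechanical stress, were lower in single S-shaped bodies. Of 24 tested, 17 were lower and 3 were higher, with a median log2 change of -2.27, or -2.18 with 3 genes at their bound. Egr2, a zinc finger factor, was 2.85, 2.85 and 5.72 against 9.81, 10.04 and 10.29 (log2 change -6.24 ± 0.70, SE, limma adjusted p = 0.000350). Its relative Egr1 was 6.51, 7.10 and 5.59 against 10.89, 10.89 and 11.28 (log2 change -4.62 ± 0.35, SE, limma adjusted p = 5.09e-05). Ccn1, a matricellular protein induced by serum and stretch, was 4.2, 6.08 and 5.68 against 10.26, 10.39 and 10.16 (log2 change -4.95 ± 0.44, SE, limma adjusted p = 0.000109). For each of the 3 genes the groups lay far apart. Junb, a partner of Fos, was at least 4.09-fold lower (limma adjusted p = 0.000181). Lower as well were Atf3, Klf6, Fos, Zfp36, Ier2, Ccn2, Gadd45g, Jun, Nr4a1, Klf4, Btg2, Fosb and Dusp1, with log2 changes between -4.26 for Atf3 and -0.73 for the phosphatase gene Dusp1. Fos itself remained well above the floor in single S-shaped bodies, at 9.05 ± 1.1 against 12.18 ± 0.09 (SD, n = 3 each). Ier3, Myc, Gadd45b and Jund did not pass. The genes called higher were Klf2, a flow-responsive factor of endothelium, at least 5.56-fold (7.58, 6.14 and 7.80 against the floor; limma adjusted p = 0.000302), Gadd45a, a growth arrest gene (11.09, 10.29 and 10.73 against 7.15, 7.25 and 7.45; log2 change 3.42 ± 0.22, SE, limma adjusted p = 2.27e-05), and Fosl2, a Fos family member (log2 change 1.72 ± 0.36, SE, limma adjusted p = 0.00672). The labels describe the same dissection and RNA protocol for both groups and give no time between dissection and extraction, so the part of handling in this result was not tested.

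Promoters of immediate early genes are textbook cases of response elements, so RefSeq windows of build GRCm38.p6 from 250 bases before to 50 bases after each gene start were searched, on both strands, for the CArG box, bound by serum response factor, and for TGACGTCA, the cyclic AMP response element. Of the 24 genes tested, 20 had at least 1 window. Egr1, Ier2 and Ccn2, called lower, had none. Of 14 called lower with a window, 2 held a CArG box and 2 held TGACGTCA (14.3% each), against 1.81% and 2.03% of all 27025 genes with windows. A match is a description of the letters, not a measured site. The stretches below show 1 window per gene, a window with the most matches. The match is in capitals with 40 bases on either side, 5′ to 3′ on the gene's strand. They are the promoters of called genes in which a match was found. The Egr2 stretch is chr10:67537454-67537543 on the plus strand and its match begins 72 bases before the start. The Zfp36 stretch is chr7:28379237-28379326, minus strand, beginning 58 bases before the start. The Btg2 stretch is chr1:134079274-134079361, minus strand, 166 bases before the start, and the Dusp1 stretch is chr17:26508568-26508655, minus strand, 143 bases before the start.
Egr2: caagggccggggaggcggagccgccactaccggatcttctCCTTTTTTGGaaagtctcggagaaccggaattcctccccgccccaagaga
Zfp36: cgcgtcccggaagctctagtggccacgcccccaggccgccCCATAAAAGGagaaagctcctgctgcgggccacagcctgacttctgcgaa
Btg2: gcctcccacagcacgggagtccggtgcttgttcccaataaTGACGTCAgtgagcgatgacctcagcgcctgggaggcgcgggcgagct
Dusp1: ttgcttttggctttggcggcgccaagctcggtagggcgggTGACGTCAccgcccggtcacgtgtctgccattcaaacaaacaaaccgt

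The genes with a CArG box in the window had log2 changes of -6.24 (Egr2) and -2.85 (Zfp36, which encodes an mRNA decay factor), and those with TGACGTCA had -1.55 (Btg2, an antiproliferative gene) and -0.73 (Dusp1). The groups did not overlap in Egr2, which was 2.85 to 5.72 in single S-shaped bodies and 9.81 to 10.29 in collecting duct. With 2 genes per motif no order between the motifs can be read.

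**Figure D4:**
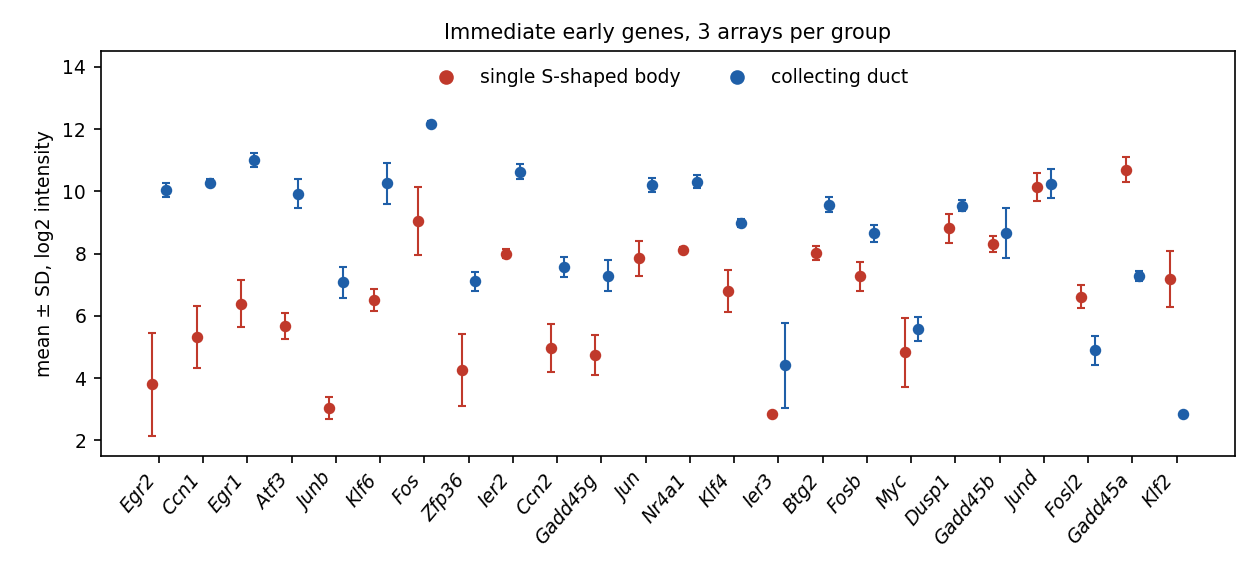
Mean level and SD (bars) of the 24 immediate early genes tested, on the log2 scale, in 3 single S-shaped bodies (red) and 3 collecting ducts (blue), ordered by log2 change from the most lowered at the left. Egr2 (-6.24) and Ccn1 (-4.95) are at the left end and Klf2 at the right end.

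Heat shock genes had 0 higher and 4 lower of 12 tested, beside 16.2% higher and 18.9% lower of all genes tested. The co-chaperone gene Dnajb1 was 3.52, 4.79 and 4.72 against 7.18, 6.85 and 6.88, at least 3.8-fold lower (limma adjusted p = 0.00156). The inducible Hspa1b was 4.55, 6.64 and 6.79 against 8.27, 8.22 and 8.66 (log2 change -2.40 ± 0.55, SE, limma adjusted p = 0.0104), and lost its call without collecting duct replicate 3. Hspa4 and Hsph1 were also called lower; of the 4 other probe sets of Hspa4, 1 was called in the opposite direction. The list's median log2 change was -0.30, and 0.10 when arrays were scaled to their 75th percentile, with 3 genes higher and 4 lower.

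Genes of energy metabolism differed in opposite directions. Of 40 oxidative phosphorylation genes tested, 19 were higher and 1 was lower, with a median log2 change of 0.43, or 0.35 with 1 gene at its bound. Cox7a2 and Cox5b, subunits of cytochrome c oxidase, were 8.66, 8.44 and 8.74 and 9.42, 8.52 and 8.49 in single S-shaped bodies, against 5.28, 5.62 and 5.22 and 6.64, 6.64 and 6.68 in collecting duct. Their log2 changes were 3.24 ± 0.23 and 2.16 ± 0.27 (SE, limma adjusted p = 3.72e-05 and 0.000653). Atp5k, a small ATP synthase subunit, was called higher, by at least 1.28-fold, but lost the call without any 1 of 4 arrays (collecting duct replicates 1 and 2, single S-shaped body replicates 4 and 5). Higher as well were Ndufa5, Ndufa6, Ndufa7, Ndufa8, Ndufb5, Ndufb8, Ndufb9, Ndufc1 and Ndufv2 of complex I, Sdhb of complex II, Uqcrb, Uqcrc1, Uqcrc2 and Uqcrq of complex III, and Cox6a1 and Cox7b, with log2 changes from 0.64 to 1.95. Cox5a was called lower with no array of either group above background, and lost the call without any 1 of 5 arrays, all but single S-shaped body replicate 5. Leaving out 1 array gave 15 to 21 genes higher and 0 to 2 lower.

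Of 16 glycolysis genes tested, 8 were lower and 0 were higher, with a median log2 change of -0.84. Hk2, the inducible hexokinase, was 2.85, 6.66 and 2.85 against 8.71, 9.26 and 9.27 (log2 change -4.95 ± 0.92, SE, limma adjusted p = 0.00381). Pdk1, the kinase that keeps pyruvate out of mitochondria, was 7.47, 7.10 and 6.72 against 9.77, 9.60 and 9.76 (log2 change -2.61 ± 0.22, SE, limma adjusted p = 8.26e-05). Ldha, lactate dehydrogenase A, was 8.02, 8.50 and 8.13 against 11.13, 10.16 and 10.82 (log2 change -2.49 ± 0.26, SE, limma adjusted p = 0.000235). The groups were separate in these genes, and in Hk2 replicate 4 stood well above the other single S-shaped bodies. Lower as well were the glucose transporter Slc2a1, Pgam1, Tpi1, Pfkm and Aldoa. Without collecting duct replicate 1 or replicate 3, 5 genes were called lower. Of 26 cytosolic ribosomal protein genes tested, 9 were higher and 2 were lower, with a median log2 change of 0.20, or 0.09 with 3 genes at their bound. Among all genes tested, 16.2% were higher and 18.9% lower. Rpl37a, Rpl19 and Rpl13a had the largest increases (log2 changes of 1.63, 1.36 and 1.21), and Rpl8 (-0.80) and Rps15 were the genes called lower. Rps15 was not above background on any single S-shaped body array, and its level in collecting duct did not exceed the bound, so no fold is given. Its call was lost without any 1 of the collecting duct arrays. The number higher was 14 with scaling to the 75th percentile, where the median was 1.08, 5 with no filter or with no mean-variance trend, and 6 without collecting duct replicate 1, collecting duct replicate 3 or single S-shaped body replicate 4. Many of these genes have near-identical pseudogene copies, and such copies can share probe sets.

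Notch, Wnt and cell cycle genes had calls in both directions. Over all genes tested, 16.2% were higher and 18.9% were lower. Of 16 Notch pathway genes tested, Hey1 was higher and 3 were lower, Numb, an inhibitor of Notch (log2 change -1.70 ± 0.42, SE, limma adjusted p = 0.0146), and the receptors Notch3 (-1.54 ± 0.24, limma adjusted p = 0.00167) and Notch2 (-0.90 ± 0.28, limma adjusted p = 0.0374). Notch3 was 7.50, 6.83 and 7.61 against 8.72, 8.93 and 8.91. The call of Notch2 was lost without any 1 of 5 arrays, and that of Numb without collecting duct replicate 1 or replicate 3. Of 24 Wnt pathway genes tested, 7 were higher and 7 were lower. The ligand Wnt5b (at least 1.98-fold, limma adjusted p = 0.00929), the secreted inhibitor Sfrp2 (7.33, 7.44 and 7.52 against 5.73, 5.72 and 5.77; limma adjusted p = 0.000865), the receptors Fzd2, Fzd4, Fzd7 and Fzd9, and the factor Tcf7l1 were higher. The ligands Wnt4 and Wnt7b, the inhibitors Dkk1 and Dkk3, the receptors Fzd3 and Lrp6, and beta-catenin (Ctnnb1) were lower, Wnt7b with no array of either group above background. Dkk3 was at the floor in single S-shaped bodies and 6.95, 6.66 and 6.88 in collecting duct, at least 3.45-fold lower (limma adjusted p = 6.45e-05). Without collecting duct replicate 1 there were 4 higher and 4 lower, and without replicate 3 there were 5 and 3. The call of Fzd7 was lost without either of these arrays. Fzd7 was not above background on any collecting duct array and its level did not exceed the bound, so no fold is given. Of 29 cell cycle genes tested, 22 did not pass, among them Mki67, at 10.07 ± 0.16 against 10.25 ± 0.29 (SD, n = 3 each). The replication genes Cdc6, Prim1, Mcm4, Pola1 and Top2a were lower, with log2 changes between -1.62 and -0.76. Hmgb2, a chromatin protein of dividing cells (log2 change 2.60 ± 0.34, SE, limma adjusted p = 0.000739), and Cdc20, an activator of the anaphase-promoting complex (0.79 ± 0.19, limma adjusted p = 0.0118), were higher. Without collecting duct replicate 1, 1 cell cycle gene was higher and 3 were lower, with the calls of Cdc20 and Mcm4 lost; that of Mcm4 was lost without replicate 3 too. Of 8 genes of neurons and glia tested, Gap43, a growth cone protein, was higher and Tubb3, a neuronal tubulin, was lower (log2 changes of 2.40 and -1.66), and the other probe set of Tubb3 was called in the opposite direction.

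The single S-shaped body arrays varied more among themselves than the collecting duct arrays. Their mean deposited intensity was 21.4 to 70.6, against 273 to 363 on the collecting duct arrays. The part of this low signal in the spread was not tested. The median SD over the probe sets tested was 0.437 on the log2 scale in single S-shaped bodies. It was 0.235 for the collecting duct samples and also 0.235 for the pools. In 73.5% of probe sets the SD was larger in single S-shaped bodies than in collecting duct. The genes with the widest range were described without a test. Hbb-y, embryonic beta-globin, was 11.79 and 10.85 in replicates 3 and 5 and 6.41 in replicate 4, and was 11.78 to 12.23 in pooled S-shaped bodies. It was called higher than in collecting duct (log2 change 4.98 ± 1.27, SE, limma adjusted p = 0.0166), and lost the call without single S-shaped body replicate 3 or replicate 5 or collecting duct replicate 3. Replicate 4 was not low for the adult-type globins, with 10.03 for Hba-a1 and 11.21 for Hbb-b2. Pnmt, the enzyme that makes adrenaline, was at the floor in replicate 3 and 8.53 and 8.25 in replicates 4 and 5. It did not pass against collecting duct (log2 change -2.14 ± 1.29, SE, limma adjusted p = 0.242). A second probe set for Pnmt went the opposite way without being called. Tgfbi, a secreted matrix protein, was 9.64 in replicate 4 and 4.71 and 5.45 in the others, with the collecting duct at the floor; its call (at least 3.72-fold, limma adjusted p = 0.0310) was lost without any 1 of the collecting duct arrays. Bmpr2, a BMP receptor, was 10.09 and 9.95 in replicates 3 and 4 and 5.74 in replicate 5. Zfp94 was 8.53 in replicate 4 and at the floor in the others, and C1qtnf12, a secreted C1q-related protein, was 7.96 in replicate 4 and 2.85 and 3.24 in the others. Inpp1, an inositol phosphatase, and Rps13 were at the floor in replicate 5, with 7.88 to 8.47 and 6.43 to 8.12 in replicates 3 and 4. Ctdp1, a phosphatase of RNA polymerase II, was highest in replicate 5 (9.44), and Nsmf in replicate 3 (8.11). The array with the extreme value thus differed from gene to gene.

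**Figure D5:**
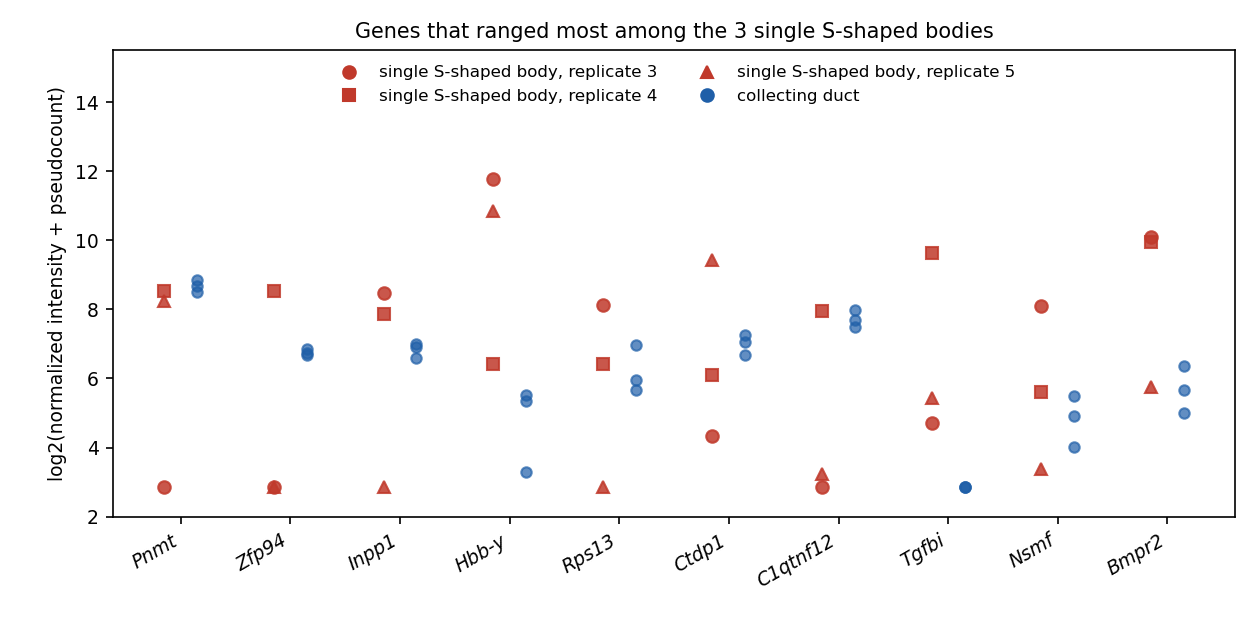
Levels on the log2 scale of the 10 genes whose values ranged most among the 3 single S-shaped bodies (red; the symbol marks the replicate), with the 3 collecting duct arrays in blue. In Pnmt, Inpp1 and Rps13 1 single body lies at the floor of 2.85, and in Hbb-y replicate 4 (6.41) lies apart from replicates 3 and 5.

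Pooled S-shaped bodies were set beside the single ones, since both are compared with the same collecting duct arrays. Arrays of single and pooled S-shaped bodies correlated at r = 0.903 to 0.953 across probe sets, against 0.798 to 0.853 between single S-shaped bodies and collecting duct. Cxcl12 was 11.10, 10.80 and 10.54 in pooled S-shaped bodies, Foxc2 10.70, 10.85 and 10.78, and Krt19 was at the floor on the 3 arrays. The endothelial Cdh5 was 10.26, 10.03 and 9.98 and Cldn5 10.41, 10.46 and 10.36. In the direct limma test of single against pooled S-shaped bodies, 23 of 6731 genes passed (0.342%). In probe sets, 23 were higher in single S-shaped bodies and 14 lower. Leaving out 1 of the 6 arrays in turn gave 0 to 35 higher and 1 to 35 lower. Of the genes in the 23 lists, those that passed were Gdnf and Ldha. Control signals for RNA length differed too. The ratio of 3′ over middle beta-actin was 7.55 to 10.4 on single and 3.22 to 3.92 on pooled arrays. For 3′ over 5′ Gapdh it was 9.37 to 13.1 and 21.2 to 28.3. Neither pair of ranges overlapped, and the ratios went in opposite directions. The part of these ratios in the counts was not tested.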

How the data were processed

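The authors deposited 1 column of linear intensity values per array, some of them negative, for 12422 probe sets and 66 controls. GCOS is named in the submitters' processing notes; how probes were summarised, corrected and scaled is not given in the sources used here. All 12 arrays were quantile normalized together, controls left out. Negative values were raised to 0 before log2 was taken of the value plus a pseudocount of 7.22 (25% of the median). Tests covered 9316 probe sets, those whose mean over the 6 arrays reached its 25th percentile. Signal counted as above background where the deposited value was greater than the size of that array's 5th percentile, which is negative. Groups were compared with limma 3.58.1 in R 4.3.3 (moderated by empirical Bayes, variance trend on, two-sided), without covariates, and called at a Benjamini-Hochberg adjusted p under 0.05; the fit was tested on simulated data. The annotation gave 10833 probe sets 1 symbol, 396 several and 1193 none. Each of 8251 genes is represented by its brightest probe set among those with 1 symbol.

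Named were, by rule, the 10 called genes most changed in each direction. These had to show no overlap of the groups and be brighter in 1 group than the median probe set tested. Named as well were the 3 called members most changed in each direction of each list, and a set of kidney markers. So were the 10 genes that ranged most among single bodies, where only the brightest single array had to be bright and above background. Further members are given with their list, and some, such as Kdr, Flt1, Cdkn1c, Krt7, Fos, Col4a1 and Mki67, were singled out after their values were seen. The members and lists were chosen with earlier results of these data known. Alternatives were other pseudocounts, scaling, filters, array weights, no trend, all 12 arrays in a fit, and leaving out each array.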

Additional observations from a re-analysis of the deposited data

Results flagged for a closer look

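The difference from collecting duct of Gdnf and Ldha differed between single and pooled S-shaped bodies by the direct limma test of single against pooled. Gdnf, the ligand that attracts the ureteric bud, was lower in single S-shaped bodies by a fitted log2 change of -2.426 (limma adjusted p = 0.0337). It was not above background on any single array and on 3 of 3 pooled arrays, which makes it at least 2.56-fold lower, with 4.08, 4.07 and 3.77 in single and 6.08, 6.38 and 6.73 in pooled S-shaped bodies, and 5.12 to 5.49 in collecting duct. It was lower on 3 of 3 single arrays. Ldha, lactate dehydrogenase A, was lower by a log2 change of -1.418 (limma adjusted p = 0.0235), with 8.02, 8.50 and 8.13 in single and 9.73, 9.61 and 9.56 in pooled S-shaped bodies, also on 3 of 3 arrays. Over 12 alternative settings the limma adjusted p ran from 0.000709 to 0.185 for Gdnf and from 0.00348 to 0.162 for Ldha. Both calls were lost without a filter, without any 1 of the pooled arrays and without single S-shaped body replicate 3, and that of Gdnf also without replicate 4. A second probe set for Gdnf was not called. The control ratios for RNA length differed between these groups without overlap and in opposite directions. For 3′ over middle beta-actin they were 7.55 to 10.4 in single and 3.22 to 3.92 in pooled S-shaped bodies. For 3′ over 5′ Gapdh they were 9.37 to 13.1 against 21.2 to 28.3. The part of these ratios in the difference was not tested.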

How the results depend on the processing

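Leaving out any collecting duct array reduced the counts most. With the 6 arrays 1664 probe sets were lower, and without collecting duct replicate 1, 2 or 3 there were 1076, 1203 and 1111. Without single S-shaped body replicate 3, 4 or 5 there were 1766, 1665 and 1613. Leaving out 1 array gave 1070 to 1523 higher and 1076 to 1766 lower. Of 95 named genes called, 69 kept the call under each of 17 settings in which they were tested, 26 lost it under at least 1, and 0 changed direction. Of genes not called, Inpp1 turned to 0.056 (pseudocount equal to the median) and 0.17 (pseudocount 50), Rps13 to 0.024 and 0.11, and Ctdp1 to 0.020 (pseudocount 50) and 0.25 (array weights); on leaving out an array Inpp1 ran from -1.46 to 1.35, Rps13 from -1.56 to 1.08, Ctdp1 from -1.78 to 0.78 and Nsmf from -0.31 to 2.05. Without single S-shaped body replicate 5, Inpp1 (1.35) and Ctdp1 (-1.78) passed (limma adjusted p = 0.0107 and 0.0394). Single against pooled bodies gave 0 to 35 higher and 1 to 35 lower on leaving out an array, 114 and 32 with scaling to the 75th percentile, 14 higher with no filter, 14 and 5 when filtered at the 50th percentile, and 238 and 239 with all 12 arrays in a fit. The median SDs in single bodies and collecting duct were 0.299 and 0.166 with the median as pseudocount, 0.490 and 0.260 with 10% of it, 0.445 and 0.241 with 75th percentile scaling, and 0.352 and 0.206 with the stricter filter. The cause was not tested. The low signal of the single arrays limits the genes measured there. No paired analysis was possible because the groups share 1 replicate number.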

Other observations

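The sex of the embryos is given as unknown, and sex-linked transcripts differed between arrays of both groups. Xist, the noncoding RNA that the inactive X chromosome makes, was 10.34, 8.58 and 8.15 on the log2 scale in single S-shaped bodies and 6.71, 4.14 and 6.0 in collecting duct (log2 change 3.41 ± 0.73, SE, limma adjusted p = 0.00767). Eif2s3y, a translation factor gene on the Y chromosome, was 4.24, 3.69 and 7.47 in single S-shaped bodies and 3.66, 8.87 and 8.26 in collecting duct, and did not pass (limma adjusted p = 0.373).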
